A study of Homo sapiens with 4 samples.

Results

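The matrix metalloproteinases (MMP), the ADAM and ADAMTS proteases and their natural inhibitors, the TIMPs, were followed in QK-knockdown Hs683 cells given miR-20a. Genes were taken by name, as the probe sets with 1 gene symbol whose current symbol is MMP, ADAM or ADAMTS with a number, or TIMP1 to TIMP4. For a gene with more than 1 probe set, the one with the highest mean over the arrays was used. This gave 64 of the 17716 genes measured, namely 22 MMP, 20 ADAM, 18 ADAMTS and 4 TIMP genes. Each probe set combines several short probes for 1 transcript into a log2 expression value.

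Total RNA was profiled on 4 Affymetrix arrays, 2 of cells that received miR-20a by transduction and 2 of cells that received miR-NT, a scrambled microRNA with no intended target. Both groups were Hs683, an established human glioma cell line, with a knockdown of QK, now named QKI. The labels name neither the knockdown reagent nor the vector, nor whether clones or pools were used. QKI itself measured 7.52 and 7.08 with miR-20a and 8.14 and 7.92 with miR-NT (log2 fold change −0.73, SE 0.16, limma adjusted p = 0.106), and the knockdown itself cannot be checked without arrays of unmodified cells. Of 12 glioma and glial markers 6 passed the filter on dim genes described below, and VIM, CD44 and CHI3L1 lay above the median signal of all probe sets, whereas GFAP, S100B, NES, OLIG1, OLIG2 and AQP4 were among the dimmest 30% of genes. The array's 5' controls of ACTB and GAPDH were lower in the miR-20a group. Such controls can reflect RNA and labelling quality, but also the amounts of these transcripts, which were not told apart here. The ACTB control measured 11.59 and 10.43 with miR-20a, against 12.78 and 12.66 with miR-NT, and the GAPDH control 13.17 and 12.30, against 13.89 and 13.81. For the members chosen for description, the fold change from a fit that also holds the ACTB 5' signal (the ACTB fit) is given beside the main one. For QKI the ACTB fit gave −0.06, and QKI changed by −0.43 from replicate 1 to 2 of the miR-20a pair. From replicate 1 to 2 the ACTB control changed by −1.16 in the miR-20a pair and by −0.11 in the miR-NT pair. Since this control also differed between the groups, the ACTB fit rests mostly on the 2 miR-20a arrays. Its fold changes are imprecise, and a value near 0 in it does not show that a gene was unchanged. Beyond that the part of RNA quality in the results was not tested.

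miR-20a belongs to a family of microRNAs that share a seed, the stretch that pairs with target transcripts (bases 2 to 8, in capitals). The labels do not name the strand. The 5p strands of the family, as given by RefSeq (GRCh38.p14), are shown because all 6 carry the same seed and differ outside it. The mature miR-20a-5p lies at chr13:91351072-91351094 on the plus strand, and target sites in the members' transcripts were not searched here.
miR-20a-5p: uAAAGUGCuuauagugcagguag
miR-17-5p: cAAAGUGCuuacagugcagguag
miR-20b-5p: cAAAGUGCucauagugcagguag
miR-93-5p: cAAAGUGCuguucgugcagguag
miR-106a-5p: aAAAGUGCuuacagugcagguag
miR-106b-5p: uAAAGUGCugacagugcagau

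MMPs are zinc-dependent proteases that cut collagens and other matrix proteins, most of them secreted and some held at the cell surface. ADAMs are membrane proteases of which several release the outer parts of receptors, ligands and adhesion molecules, while ADAMTS enzymes are secreted and act on proteoglycans, procollagens and other matrix substrates. TIMPs bind the active site of MMPs and, in part, of ADAMs and ADAMTS enzymes. In gliomas these enzymes are studied for their roles in invasion through brain matrix and in growth factor release.

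No member passed the test over all genes (limma, adjusted p under 0.05), a call made for 0.00806% of the 12401 genes tested. The test left out the 30% of genes with the lowest mean signal, and 35 members were tested while 29 were too dim. At an unadjusted p under 0.05, 8 tested members were lower with miR-20a (22.9%, against 13.2% of all genes tested) and 3 were higher (8.57%, against 5.82%). The 8 were ADAM9, ADAM15, ADAM17, ADAMTS1, ADAMTS19, MMP14, TIMP2 and TIMP3, and the 3 were MMP1, ADAMTS6 and ADAMTS18. Over all 64 members, 30 had a log2 fold change (miR-20a minus miR-NT) below 0 and 34 above, with a median of 0.04, where that of all genes was 0.00. The groups lay apart, with no overlap of their arrays, downward in 19 members (29.7%, against 27.2% of all genes) and upward in 17 (26.6%, against 26.7%), so these shares were close to the background. Of the 35 tested members, 13 lay apart downward and 9 upward, where 31.1% and 25.1% of all genes tested did. These values are from bulk RNA, where fewer cells with a transcript and less of it per cell cannot be told apart.

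**Figure D1:**
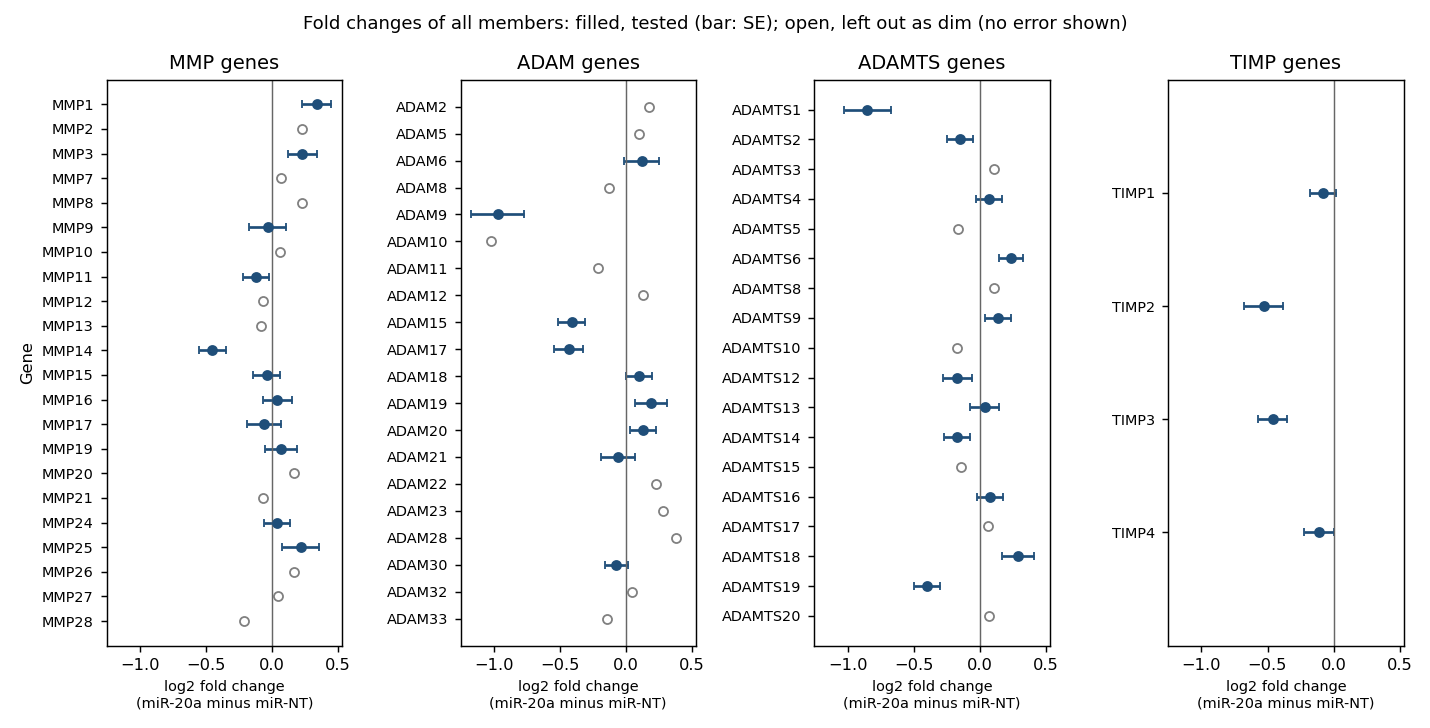
Log2 fold changes of all 64 members, miR-20a minus miR-NT, in 4 panels by subfamily. Filled points with bars are the 35 tested members with their SE, and open points the 29 left out as dim. ADAM10, ADAM9 and ADAMTS1 lie farthest below 0 at −1.02, −0.97 and −0.85, and no member lies above 0.38.

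The direction differed with signal. Among the 20 members above the median signal of all probe sets (6.45), 13 were below 0 and 7 above, a share of 65.0% below, against 57.0% of the 9082 genes above that signal. The 44 members at or below it held 17 below 0 and 27 above, or 38.6% below, against 41.6% of all genes there. The medians were −0.10 for the brighter members and 0.06 for the dimmer ones, against −0.04 and 0.04 for all genes in the same ranges. The groups lay apart downward in 9 of the brighter members (45.0%, against 34% of all genes there) and upward in 4, where 24.1% of all genes did. Brighter genes thus lay more often below 0 than dimmer ones, among the members as among all genes. In the ACTB fit the medians were −0.07 for the brighter and −0.06 for the dimmer members. For all genes in the same ranges they were 0.08 and −0.04. Shares below 0 were not counted in that fit. Levels are not compared between genes, since probe sets differ in how strongly they respond.

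The collagenases and stromelysins opened the MMP list. MMP1, the interstitial collagenase, measured 11.76 and 11.81 with miR-20a and 11.56 and 11.33 with miR-NT. At a log2 fold change of 0.34 (SE 0.11) it was 1.27-fold higher and did not pass (limma adjusted p = 0.193). The miR-20a arrays were the higher ones, by a gap of 0.20 that is smaller than the difference of 0.23 between the miR-NT arrays. MMP3, the stromelysin that can activate procollagenase, measured 9.31 and 9.16 with miR-20a and 9.08 and 8.94 with miR-NT. Its log2 fold change of 0.23 (SE 0.11, limma adjusted p = 0.297) came with groups that lay apart by 0.08. In the ACTB fit these fold changes were 0.31 for MMP1 and 0.46 for MMP3, and with 1 array left out they ranged from 0.22 to 0.46 and from 0.15 to 0.30. MMP11, a stromelysin that is activated inside the cell, was at −0.12, and MMP8, MMP10 and MMP13 were too dim to be tested, with fold changes of 0.23, 0.06 and −0.08.

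MMP1 and MMP3 belong to a run of neighbouring genes on chromosome 11, in the order MMP7, MMP20, MMP27, MMP8, MMP10, MMP1, MMP3, MMP12 and MMP13. Of these 9 members, 7 had a fold change above 0 and 2 below, with a median of 0.07. MMP1 and MMP3 passed the filter on dim genes, and the other 7 were left out as dim, and the fold changes of these 7 ran from −0.08 to 0.23. Many MMP promoters are known to bind AP-1, the dimer of FOS and JUN proteins. The AP-1 letters TGANTCA, which read the same on both strands, were searched from 250 bases before to 50 after the start of each gene, in the RefSeq promoters that matched 36 members. They stood in 4 of the 36 (11.1%), against 7.71% of 35116 promoters, and in 3 of 11 MMP, 0 of 11 ADAM, 1 of 11 ADAMTS and 0 of 3 TIMP promoters. MMP1 and MMP3 were not among the 36, so their promoters were not searched. The 4 are shown with the letters in capitals, over 60 bases of the gene's own strand each, to let their surroundings be compared (RefSeq, GRCh38.p14, all on the minus strand).
MMP7, chr11:102530781-102530840: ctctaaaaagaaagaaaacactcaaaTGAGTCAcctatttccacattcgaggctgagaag
MMP10, chr11:102780662-102780721: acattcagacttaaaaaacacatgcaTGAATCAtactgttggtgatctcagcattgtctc
MMP20, chr11:102625411-102625470: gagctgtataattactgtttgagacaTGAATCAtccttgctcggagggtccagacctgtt
ADAMTS12, chr5:33892041-33892100: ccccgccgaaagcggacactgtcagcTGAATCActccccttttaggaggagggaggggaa
Counted from the start of the gene, the letters begin at position −67 in both MMP7 and MMP10, at −112 in MMP20 and at −84 in ADAMTS12. The log2 fold changes of these genes were 0.07 for MMP7, 0.06 for MMP10, 0.17 for MMP20 and −0.17 for ADAMTS12. A match of letters is not a bound site.

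Membrane-type MMPs, which cut matrix at the cell surface, were all 6 tested, 3 below 0 and 3 above. MMP14, the membrane-type enzyme that activates the MMP2 proenzyme together with TIMP2, measured 6.91 and 6.98 with miR-20a and 7.48 and 7.31 with miR-NT. A gap of 0.33 separated the groups, and the miR-20a arrays lay at −0.49 and −0.41 from the miR-NT mean. MMP14 was thus 1.37-fold lower (log2 fold change −0.45, SE 0.10, limma adjusted p = 0.119), and it was −0.53 in the ACTB fit. MMP15, MMP16 and MMP17 overlapped between the groups. MMP15 measured 7.01 and 7.10 with miR-20a and 7.06 and 7.13 with miR-NT, MMP16 7.38 and 7.38 against 7.24 and 7.44, and MMP17, which is held by a lipid anchor, 7.07 and 7.28 against 7.38 and 7.08. Their fold changes were −0.04, 0.04 and −0.06, or −0.18, 0.02 and −0.31 in the ACTB fit. MMP16 was the member with a second probe set, and the 2 differed in sign, at 0.04 and −0.16. MMP24 and MMP25 were at 0.04 and 0.22 and overlapped too.

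Of the gelatinases, which cut denatured collagen and basement membrane collagen, MMP9 was tested and did not pass, and MMP2 was too dim. A dim probe set does not show that a transcript is scarce, since probe sets differ in how strongly they respond. MMP2 measured 4.05 and 4.16 with miR-20a and 3.90 and 3.86 with miR-NT, a fold change of 0.23 (limma adjusted p = 0.297 in a fit without the filter). The MMP2 groups lay apart by 0.15, at a mean signal of 3.99, where the lowest mean tested was 5.46. In the ACTB fit the MMP2 fold change was 0.06. MMP9 measured 6.32 and 5.96 with miR-20a and 6.26 and 6.08 with miR-NT, with a fold change of −0.03 (SE 0.14, limma adjusted p = 0.901). Its miR-20a arrays enclosed both miR-NT arrays, and the fold change was 0.52 in the ACTB fit. Over all 22 MMP genes, 9 were below 0 and 13 above, with a median of 0.05. The groups lay apart downward in 2 of them (9.09%) and upward in 5 (22.7%), against 27.2% and 26.7% of all genes.

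**Figure D2:**
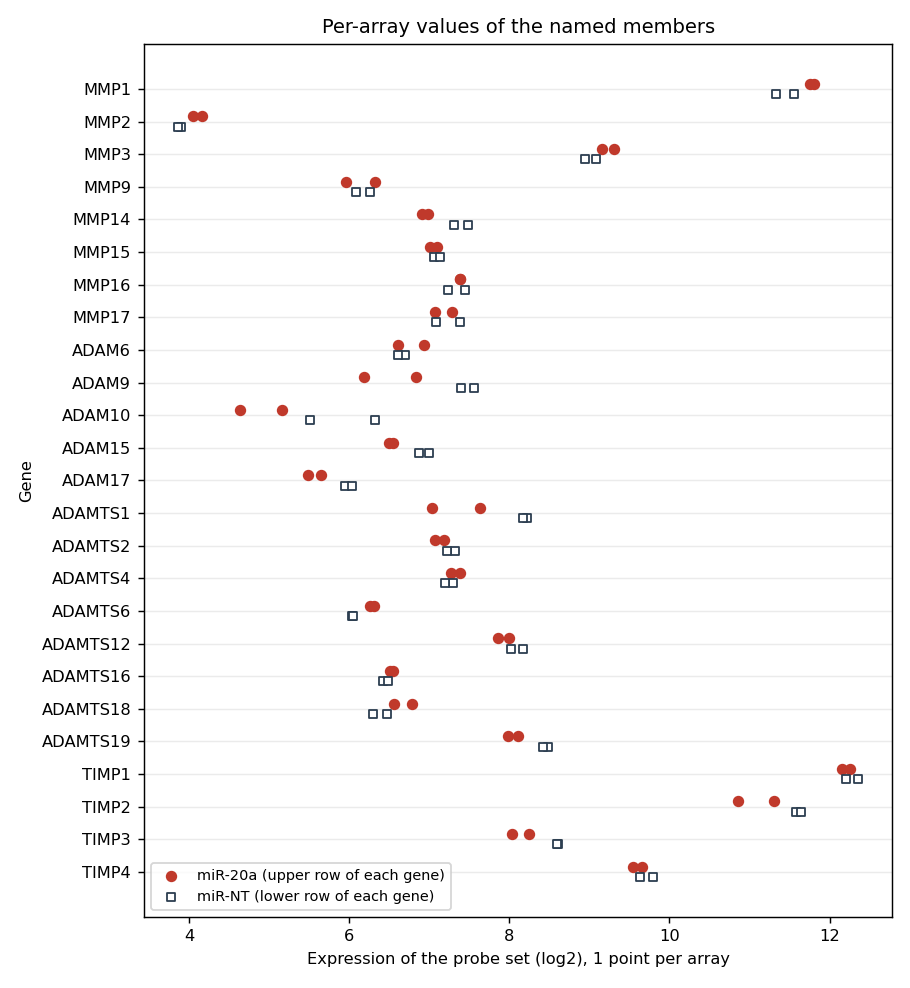
Log2 expression of the 25 members chosen for description, 1 point per array, with the 2 miR-20a arrays as filled circles in the upper row of a gene and the 2 miR-NT arrays as open squares in the lower row. The miR-20a points lie left of the miR-NT points for MMP14, ADAM9, ADAM10, ADAM15, ADAM17, ADAMTS1, ADAMTS2, ADAMTS12, ADAMTS19, TIMP2 and TIMP3. They lie right of them for MMP1, MMP2, MMP3, ADAMTS6, ADAMTS16 and ADAMTS18. The other genes overlap.

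ADAM9, ADAM10, ADAM15 and ADAM17 were below miR-NT in both miR-20a arrays. ADAM9, which sheds growth factor precursors, measured 6.84 and 6.18 with miR-20a and 7.56 and 7.39 with miR-NT. With a log2 fold change of −0.97 (SE 0.20) it was 1.95-fold lower and had the smallest p among the members (limma adjusted p = 0.1). A gap of 0.55 separated the groups, but the second miR-20a array was lower than the first by 0.65, and the fold change was 0.01 in the ACTB fit. ADAM10, the protease that cleaves Notch receptors and cadherins, measured 5.16 and 4.63 with miR-20a and 6.32 and 5.51 with miR-NT. At a mean of 5.40, under the lowest mean tested (5.46), it was left out as dim. Its fold change of −1.02 was the lowest of all members, and in a fit without the filter it had an SE of 0.26 and a limma adjusted p of 0.165. The miR-NT arrays differed by 0.81 from each other, more than the gap of 0.35 between the groups, and the fold change was −0.14 in the ACTB fit.

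ADAM17, which releases TNF and ligands of the EGF receptor, measured 5.65 and 5.48 with miR-20a and 5.95 and 6.04 with miR-NT. The fold change was −0.43 (SE 0.11, limma adjusted p = 0.132), and −0.18 in the ACTB fit, with a gap of 0.30 between the groups. ADAM15, a protease with an integrin-binding domain, measured 6.50 and 6.55 with miR-20a and 6.87 and 7.0 with miR-NT. Its fold change of −0.41 (SE 0.10, limma adjusted p = 0.127) was nearly the same in each miR-20a array, −0.44 and −0.39, and was −0.50 in the ACTB fit. In ADAM15 and ADAM17, as in MMP14, ADAMTS19 and TIMP3, the miR-20a arrays differed by less than the gap between the groups. This was not so in ADAM9.

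The rest of the tested ADAM genes lay nearer to 0. ADAM6, a transcribed pseudogene in the annotation, measured 6.61 and 6.94 with miR-20a and 6.70 and 6.61 with miR-NT, and overlapped (fold change 0.12, or −0.36 in the ACTB fit). The other 5 tested ADAM genes had fold changes from −0.07 to 0.19, smaller in size than those of ADAM9, ADAM15 and ADAM17. The highest of these was ADAM19, whose groups lay apart upward. The fold changes of the 11 dim ADAM genes ran from −1.02 for ADAM10 to 0.38 for ADAM28. Over all 20 ADAM genes the median was 0.07, with 9 below 0 and 11 above. The groups lay apart downward in 8 (40.0%, against 27.2% of all genes) and upward in 7 (35.0%, against 26.7%).

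**Figure D3:**
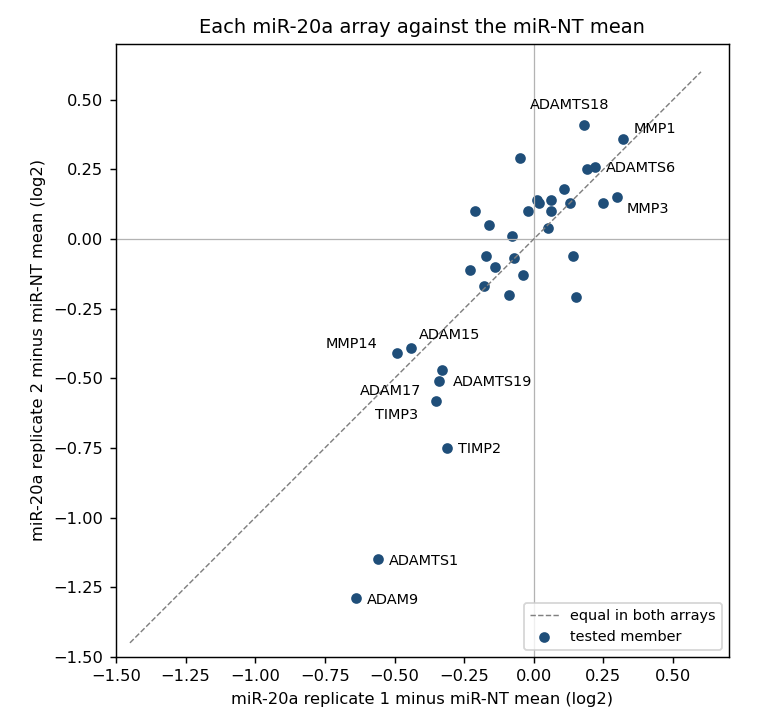
Each of the 35 tested members by its distance from the miR-NT mean in miR-20a replicate 1 (horizontal axis) and replicate 2 (vertical axis), both log2, with a dashed line where they are equal. ADAM9 (−0.64 and −1.29) and ADAMTS1 (−0.56 and −1.15) lie well below the line, while MMP14, ADAM15 and MMP1 lie close to it.

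Among the ADAMTS genes ADAMTS1, which cleaves versican and aggrecan, lay farthest from 0. It measured 7.63 and 7.04 with miR-20a and 8.22 and 8.17 with miR-NT, 1.81-fold lower (log2 fold change −0.85, SE 0.18, limma adjusted p = 0.102). The groups lay apart by 0.54, the miR-20a arrays differed by 0.59, and the fold change was 0.01 in the ACTB fit. ADAMTS4, another aggrecanase, measured 7.27 and 7.38 with miR-20a and 7.30 and 7.20 with miR-NT and overlapped (fold change 0.07, or −0.08 in the ACTB fit). Of the 7 aggrecanases and other proteoglycanases, 3 were below 0 and 4 above, and 4 were too dim to be tested. ADAMTS5, which neighbours ADAMTS1 on chromosome 21, was one of the dim ones and overlapped, at −0.16.

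The enzymes that trim procollagen, ADAMTS2, ADAMTS3 and ADAMTS14, were at −0.15, 0.11 and −0.17, with ADAMTS3 too dim to be tested. ADAMTS2 measured 7.18 and 7.07 with miR-20a and 7.32 and 7.22 with miR-NT, a gap of 0.04 that is smaller than the difference within either pair, and its fold change was 0.04 in the ACTB fit. ADAMTS12, which cleaves the cartilage protein COMP, measured 7.86 and 7.99 with miR-20a and 8.17 and 8.02 with miR-NT (fold change −0.17, SE 0.11, limma adjusted p = 0.390). Its groups were apart by 0.03 only, and the fold change was −0.33 in the ACTB fit. ADAMTS19, whose substrates are less known, measured 8.11 and 7.98 with miR-20a and 8.48 and 8.42 with miR-NT, with a gap of 0.30 and a fold change of −0.40 (SE 0.10, limma adjusted p = 0.135), or −0.19 in the ACTB fit.

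ADAMTS6 and ADAMTS18 were the members of this subfamily with higher values at an unadjusted p under 0.05. ADAMTS6 measured 6.26 and 6.31 with miR-20a and 6.04 and 6.05 with miR-NT, a fold change of 0.24 (SE 0.09, limma adjusted p = 0.240), or 0.17 in the ACTB fit. ADAMTS18 measured 6.56 and 6.79 with miR-20a and 6.30 and 6.47 with miR-NT, a fold change of 0.29 (SE 0.12, limma adjusted p = 0.249), which was −0.07 in the ACTB fit. In both genes the groups lay apart, by 0.21 and 0.09. ADAMTS16 measured 6.51 and 6.55 with miR-20a and 6.42 and 6.48 with miR-NT, at 0.08, or 0.02 in the ACTB fit. All 18 ADAMTS genes together had a median of 0.05, with 8 below 0 and 10 above, apart downward in 7 (38.9%, against 27.2% of all genes) and upward in 5 (27.8%, against 26.7%).

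All 4 TIMP genes were tested and had fold changes below 0, with a median of −0.29, where the median of all genes tested was −0.02. All 4 lay above the median signal, where 57.0% of all genes were below 0. After quantile normalization the fold changes of TIMP1 to TIMP4 were 0.03, −0.40, −0.39 and −0.01. In the ACTB fit the median of the 4 was −0.03, with TIMP1 (0.07) and TIMP2 (0.12) above 0 and TIMP3 (−0.14) and TIMP4 (−0.25) below. TIMP2, the inhibitor that also takes part in MMP2 activation, measured 11.30 and 10.86 with miR-20a and 11.58 and 11.64 with miR-NT. The fold change of −0.53 (SE 0.15) made it 1.45-fold lower (limma adjusted p = 0.158), with a gap of 0.28 between the groups and a difference of 0.45 within the miR-20a pair. TIMP3, which binds to the matrix and also inhibits ADAM17 and aggrecanases, measured 8.25 and 8.03 with miR-20a and 8.61 and 8.60 with miR-NT. It was 1.38-fold lower (log2 fold change −0.46, SE 0.11, limma adjusted p = 0.122), and its groups were apart by 0.35, more than the difference within either pair.

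TIMP1 and TIMP4 overlapped between the groups. TIMP1, a secreted inhibitor with little effect on membrane-type MMPs, measured 12.25 and 12.16 with miR-20a and 12.36 and 12.21 with miR-NT (fold change −0.08, SE 0.10, limma adjusted p = 0.645). TIMP4 measured 9.55 and 9.66 with miR-20a and 9.80 and 9.63 with miR-NT (fold change −0.11, SE 0.11, limma adjusted p = 0.560). TIMP1, TIMP3 and TIMP4 each lie within a synapsin gene, SYN1, SYN3 and SYN2 in that order, whose own probe sets were at 0.07, 0.13 and 0.31. Within the miR-20a pair, TIMP1, TIMP2 and TIMP3 were lower by 0.09, 0.45 and 0.22 in replicate 2, while TIMP4 was higher there by 0.11. Of all genes above the median signal, 66.5% were lower in replicate 2. The ACTB 5' control was also the lower one there, and a link between the 2 was not tested.

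**Figure D4:**
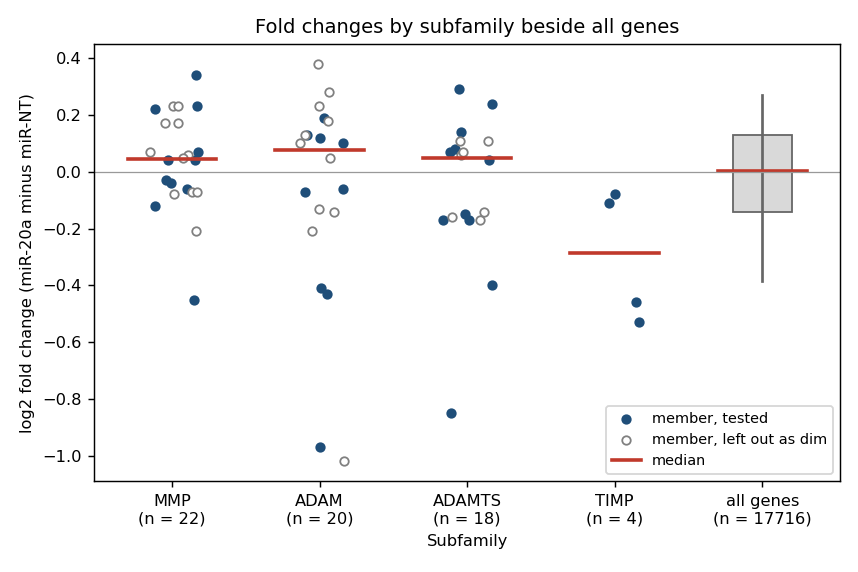
Log2 fold changes (miR-20a minus miR-NT) of the MMP, ADAM, ADAMTS and TIMP genes, 1 point per gene, filled where tested and open where left out as dim, with the median as a red line. The box at the right spans the quartiles of all 17716 genes and its line the 5th to 95th percentiles. The medians are 0.05, 0.07, 0.05 and −0.29.

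With 1 array left out, calls among the members depended on which one it was. Without miR-20a replicate 1, 9 members passed (limma adjusted p under 0.05), namely ADAM9, ADAM15, ADAM17, ADAMTS1, ADAMTS19, MMP14, TIMP2 and TIMP3, which were lower, and ADAMTS18, which was higher. In that fit 15.1% of all genes tested passed. Without miR-20a replicate 2, ADAM9 (log2 fold change −0.64), ADAMTS1 (−0.56) and MMP14 (−0.49) passed, as did 2.1% of all genes, and without either miR-NT array no member and no gene passed. The lone array of a group is assumed to vary like the other group in such fits. Across all alternatives MMP14 stayed between −0.53 and −0.37, ADAM15 between −0.50 and −0.34 and MMP1 between 0.22 and 0.46, whereas ADAM9 ran from −1.29 to 0.01 and ADAMTS1 from −1.15 to 0.01.

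Genes that activate, anchor or regulate these proteases were read in 2 lists. The share below 0 was 58.3% for the measured genes of plasminogen activation and protease activation. It was 71.4% for the docking partners and membrane regulators. Of all genes 49.5% were below 0, of all genes tested 53.8%, and of all genes above the median signal 57.0%. The share of the first list was thus close to the background. No gene of the 2 lists passed the test over all genes. The 2 lists pool opposed roles, since they also hold inhibitors such as SERPINE2, SERPINF2, RECK and TFPI2. Over all measured genes, the median was −0.05 for 12 genes of plasminogen activation and protease activation. It was −0.08 for 21 docking partners and membrane regulators. In the ACTB fit these medians were 0.05 and 0.01. Of 9 tested genes of plasminogen activation and protease activation 6 were below 0 and 3 above, with a median of −0.13. PLAU, the urokinase that turns plasminogen into plasmin, measured 9.55 and 8.60 with miR-20a and 10.42 and 10.30 with miR-NT. Its log2 fold change was −1.28 (SE 0.26, limma adjusted p = 0.1), with a difference of 0.95 between the miR-20a arrays, and it was 0.11 in the ACTB fit. The proprotein convertase PCSK7 (−0.27), the lysosomal protease CTSB (−0.30) and PCSK6 (0.21), a relative of PCSK7, were next by p, at −0.06, 0.09 and 0.12 in the ACTB fit.

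Of 18 tested docking partners and membrane regulators 14 were below 0 and 4 above, with a median of −0.09. CD44, the hyaluronan receptor that anchors MMP9, measured 10.53 and 10.08 with miR-20a and 11.24 and 11.12 with miR-NT (log2 fold change −0.87, SE 0.15, limma adjusted p = 0.0949). The tetraspanin CD9, a partner of ADAM10 and ADAM17, was at −0.49 (SE 0.10) and BSG, a surface protein known to induce MMPs, at −0.59 (SE 0.14). TSPAN10, of the tetraspanins that guide ADAM10 to the surface, was at 0.25 (SE 0.11, limma adjusted p = 0.269). The ACTB fit gave −0.20 for CD44, −0.24 for CD9, −0.05 for BSG and 0.30 for TSPAN10.

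The substrates were split in direction. Of 22 tested proteins shed by ADAM10 or ADAM17, 11 were below 0 and 11 above, with a median of 0.00. NOTCH2 measured 7.77 and 7.31 with miR-20a and 8.35 and 8.32 with miR-NT, a log2 fold change of −0.80 (SE 0.15, limma adjusted p = 0.0963). The adhesion protein CDH2 (−0.60), the amyloid precursor APP (−0.31) and the receptor MET (−0.28) followed by p. In the ACTB fit NOTCH2 was at −0.12, APP at −0.18 and MET at −0.33, while CDH2 was above 0 at 0.30. Of 7 tested ADAMTS substrates and matrix proteins 3 were below 0 and 4 above. VCAN, the versican that ADAMTS1 cleaves, was at −0.55 (SE 0.12, limma adjusted p = 0.102), COL3A1 at −0.47 and FN1 at −0.41, while COL1A1 was at 0.33. Their ACTB-fit values were −0.18, −0.74, −0.45 and 0.23 in that order.

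Among 16 transcription factors of MMP promoters, all of them tested, 7 were below 0 and 9 above, with a median of 0.02. The AP-1 proteins were split, with JUND at 0.40 (SE 0.10, limma adjusted p = 0.140) and JUN at 0.37 (SE 0.15), but FOSL2 at −0.36 (SE 0.10). RELA, a subunit of NF-kB, was at −0.36 (SE 0.10). In the ACTB fit JUND was at 0.16, JUN at 0.43, FOSL2 at −0.32 and RELA at −0.26. JUND measured 11.05 and 11.20 with miR-20a and 10.73 and 10.73 with miR-NT, so that its groups did not overlap. Of 18 measured markers of other cell types 12 were among the dimmest 30% of genes, including PTPRC, EPCAM, CDH1 and CDH5, which define leukocytes, epithelium and endothelium. The other 6 were tested, and of these KRT18 (epithelium), CD3E (T cells) and SYT1 (neurons) lay above the median signal, with means of 12.65, 7.51 and 6.56, while ITGAM, PECAM1 and RBFOX3 lay below it. The summed log2 values of the 18 were 98.8 and 101.3 with miR-20a and 97.9 and 98.4 with miR-NT. Of the 18, 14 had a fold change above 0, as did 8950 of all 17716 genes and 3218 of the 5315 dim ones. The 18 include MMP8, itself a member, and VWF, which is also among the ADAMTS substrates. The summed log2 values of the 12 glioma and glial markers were 77.5 and 77.6 with miR-20a and 78.1 and 78.3 with miR-NT. The part of either list in the results was not tested.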

How the data were processed

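The values the authors deposited are on a log2 scale, as judged from their range, with 1 value for each array and probe set. Per the submitters' processing notes, affy was used. How the 20323 probe sets were chosen, summarised and normalized is not stated there. Groups came from the source names and replicate numbers from the titles. Separate cultures are not mentioned in the labels, so the p-values reflect the spread between these arrays alone, possibly a technical one. Gene names came from the platform annotation, brought up to date by RefSeq gene identifiers. There were 18062 probe sets with 1 symbol, 886 with several and 1375 without a gene. Of those with several, 2 name a member-like gene (MMP23A with MMP23B, ADAM29 with another gene) and were not used.

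The test was limma's moderated test, version 3.58.1 under R 4.3.3 (lmFit, eBayes, miR-20a minus miR-NT, two-sided, Benjamini-Hochberg over 12401 genes), with 2 residual and 5.53 prior degrees of freedom. SE are those of this fit. The 5315 genes in the lowest 30% by mean of the 4 arrays were left out. The fit was also run on simulated arrays with independent errors and no shift common to an array. That run does not show how the fit deals with such shifts in these data. The number of arrays, 4, limits the precision. The members and all lists were chosen with earlier results of these data known. The genes described were the main enzymes and inhibitors, every member above the median signal, the 3 tested members of each subfamily with the smallest p, and up to 4 genes of each other list with the smallest p; further members are named by role group or chromosome run. A planned search of protein motifs was not run, since no protein sequences were used here. Alternatives were quantile normalization, median centring, no or a stricter (50%) filter on dim genes, a robust prior with a trend in intensity, averaged probe sets of a gene, the replicate number as a block, a covariate for the ACTB 5' signal, and the omission of each array in turn.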

Additional observations from a re-analysis of the deposited data

How the results depend on the processing

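The number of members that passed over all genes was 0 under all 8 alternatives that kept every array, and ranged from 0 to 9 with 1 array left out. Over all genes the number passing was 1; it was 5 after quantile normalization, 47 after median centring, 4 with the lowest 50% left out, 24 with an intensity trend and robust prior, 6 with the ACTB 5' covariate, and 0 to 1869 with 1 array left out. With the replicate number as a block it was 0, no member passed, and the medians were unchanged at 0.05, 0.07, 0.05 and −0.29 for MMP, ADAM, ADAMTS and TIMP genes. The labels do not say that a number marks a shared culture; same-numbered arrays deviated from their group means with a correlation of 0.267 over genes.

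With the lowest 50% left out, fewer members remain and the median was 0.00 for MMP, −0.41 for ADAM and −0.16 for ADAMTS genes. With the ACTB 5' covariate the medians were −0.06, −0.11, −0.01 and −0.03 for MMP, ADAM, ADAMTS and TIMP genes. After quantile normalization they were 0.03 for ADAMTS and −0.20 for TIMP genes. With 1 array left out they ranged from 0.00 to 0.12 (MMP), −0.02 to 0.08 (ADAM), −0.04 to 0.03 (ADAMTS) and −0.35 to −0.24 (TIMP).

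Of 294 values of the 25 described members under 12 alternatives, 262 kept their direction and their side of the threshold, 12 passed it with an array left out, and 18 turned sign, none of them past the threshold. The other 2 belong to untested dim members, ADAM10 at −0.14 and MMP2 at 0.06 with the ACTB 5' covariate, which kept their direction but moved by more than the spread between replicates. With the ACTB 5' covariate the log2 fold changes that turned were those of ADAM6 (−0.36), ADAM9 (0.01), ADAMTS1 (0.01), ADAMTS2 (0.04), ADAMTS4 (−0.08), ADAMTS18 (−0.07), MMP9 (0.52), TIMP1 (0.07) and TIMP2 (0.12). TIMP1 was at 0.03 after quantile normalization and MMP16 at −0.06 as the mean of its probe sets. With 1 array left out ADAM6 ranged from −0.05 to 0.29, MMP9 from −0.21 to 0.15, MMP15 from −0.08 to 0.01, MMP16 from −0.05 to 0.14 and MMP17 from −0.20 to 0.09. The cause of these shifts was not tested. The covariate fit leaves 1 residual degree of freedom, and 2 arrays a group limit all values.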
